A study of Rattus norvegicus with 4 samples.

Results

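The PAR bZIP and Period genes are the output side of the liver clock. Members were chosen by gene symbol from a list of 10 (*Dbp*, *Tef*, *Hlf*, *Per1*, *Per2*, *Per3*, *Ciart*, *Usp2*, *Noct*, and *Bhlhe41*), of which 8 were matched among the 16992 genes of the tables. *Hlf* and *Bhlhe41* were not analysed here. The data are RNA-seq libraries from the livers of 4 wild type male Wistar rats. Each condition is 1 rat, which breathed either 4.5% sevoflurane or 6% desflurane in 50% oxygen for 6 hours (sevoflurane 6 h and desflurane 6 h), or the same agent for less than 1 minute, until it lost consciousness (sevoflurane control and desflurane control). The rats were 6 weeks old when purchased and were kept in a 12-hour light phase that started at 7 AM. All of them, controls included, were sacrificed at approximately 3 PM, 8 hours after lights on. Food and water were withdrawn 2 hours before the experiment in all groups and an unconscious rat does not eat, so 6 hours of anesthesia and 6 more hours without food cannot be told apart. Since each condition has 1 library, no test was made, no difference has a replicate check, and differences between 2 livers of the same condition are not known.

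The circadian clock is a feedback loop of transcription in which the activators BMAL1 (encoded by *Arntl*), CLOCK, and NPAS2 bind E-boxes and switch on the Period and Cry repressors, which then inhibit the activators. The same E-boxes drive *Dbp*, whose protein belongs with TEF to the PAR bZIP transcription factors, and these proteins bind D-boxes in a further layer of rhythmic genes. In the liver, PAR bZIP factors are known for the daily rhythm of drug and steroid metabolizing enzymes. Period genes can also respond directly to glucocorticoids, cAMP, feeding, and temperature, without the rest of the clock.

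The promoters of *Ciart*, *Per2*, and *Tef* are shown because they contain letters of the E-box or D-box, the elements bound by the clock activators and the PAR bZIP factors. RefSeq promoter sequences in the GRCr8 build were matched for 8 of the 8 genes, and only the first entry of each gene symbol was used. The 250 bases before the annotated start were searched on both strands. Capitals mark the E-box CACGTG, its variant CACGTT, and the D-box TTATGNAA, which do not overlap each other here. The sequences lie at chr2:186112247-186112496 (minus strand), chr9:99496994-99497243 (minus strand), and chr7:115206577-115206826 (plus strand), respectively.
Ciart: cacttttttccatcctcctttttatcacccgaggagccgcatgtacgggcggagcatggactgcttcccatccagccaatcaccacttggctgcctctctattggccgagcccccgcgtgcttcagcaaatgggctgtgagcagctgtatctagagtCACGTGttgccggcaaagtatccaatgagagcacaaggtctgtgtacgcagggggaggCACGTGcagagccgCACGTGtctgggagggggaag
Per2: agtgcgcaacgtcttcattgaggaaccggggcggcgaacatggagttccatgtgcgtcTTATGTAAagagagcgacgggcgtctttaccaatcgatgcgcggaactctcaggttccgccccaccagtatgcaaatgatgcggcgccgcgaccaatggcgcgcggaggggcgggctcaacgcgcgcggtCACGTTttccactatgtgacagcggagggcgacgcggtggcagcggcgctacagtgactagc
Tef: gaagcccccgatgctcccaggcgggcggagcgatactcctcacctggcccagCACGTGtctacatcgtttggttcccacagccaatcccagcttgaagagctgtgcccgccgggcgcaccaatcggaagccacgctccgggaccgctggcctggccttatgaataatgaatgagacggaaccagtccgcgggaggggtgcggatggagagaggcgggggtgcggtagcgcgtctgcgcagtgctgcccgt

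The *Ciart* window held 3 E-boxes, which began 93, 35, and 21 bases before the start. Of 33469 rat promoter windows of the same length, 5.59% held at least 1 such E-box and 0.0508% held 3 or more. In *Per2*, the D-box began 192 bases and the CACGTT element 62 bases before the start, and these letters were present in 3.28% and 4.07% of all windows. The *Tef* window held 1 E-box at 198 bases. A cAMP response element (TGACGTCA), present in 1.59% of all windows, was searched as well. The windows of the other 5 genes held none of the 4 motifs, which says only that these letters are not in these windows. A match of letters does not show that a factor binds there. Whether these annotated starts are the ones used in these livers was not tested.

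In the tables, a gene is given as TPM, a share of the transcripts of a library that is scaled for length, so that levels can be compared between genes. A gene was called upregulated or downregulated when it was more than 2-fold different and exceeded a TPM of 2 in the library where it was more abundant. In all 4 libraries, 7 of the 8 genes had TPM values higher than 2, and *Ciart* was slightly below this limit in the desflurane control. The average coverage of their exons was between 3.69 and 328 reads per base. The files give no read counts, and counting intervals were therefore not calculated. In the 4 libraries, the ratio of coverage to FPKM corresponded to between 4.47 and 5.40 Gb of aligned sequence. All 7 hepatocyte markers were abundant, and their summed TPM was between 132026 and 148492. The summed TPM of 7 Kupffer cell and leukocyte markers was 718 in the sevoflurane control and 335 in its 6-hour library, and 480 in the desflurane control and 587 in its 6-hour library. The summed TPM of 5 pancreatic acinar genes was 43.9 and 18.4 in the sevoflurane control and its 6-hour library, and 15.1 and 15.2 with desflurane. Of these, *Cela1* was present in all libraries (15.1 to 22.8), *Prss1*, *Ctrb1*, and *Pnlip* were at 6.58, 8.94, and 3.45 in the sevoflurane control and listed at 0 in the others, and *Cpa1* was at 2.13 in the sevoflurane control and at most 0.038 in the others. The part of these other cells in the results was not tested, and in whole liver fewer cells of a type and less RNA per cell cannot be told apart.

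Among the clock output genes, *Per1* and *Per3* had higher and *Per2* had lower TPM values in both 6-hour libraries than in both controls, whereas *Dbp* and *Tef* stayed within the range of the controls or next to it. *Noct* was high in the 6-hour sevoflurane library alone among the 4. In the desflurane control, 7 of the 8 genes had their lowest TPM value, and the share of all genes with their lowest value there was not counted. Below, values in the same order are those of the sevoflurane control, the 6-hour sevoflurane library, the desflurane control, and the 6-hour desflurane library.

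**Figure D1:**
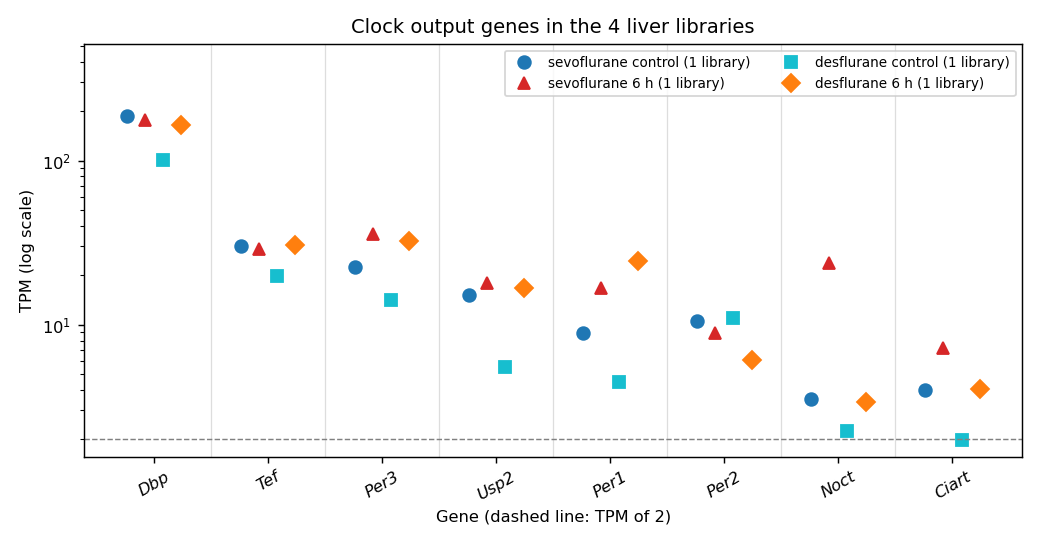
TPM values (log scale) of the 8 clock output genes in the 4 liver libraries, 1 point per library, ordered by mean TPM, with a dashed line at a TPM of 2. The desflurane control is the lowest point of every gene but *Per2*, and the 6-hour sevoflurane library is far above the other 3 in *Noct* (23.8 against 3.52, 2.24, and 3.39).

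*Dbp* encodes the founding PAR bZIP factor and was the most abundant of the 8 genes (chr1:101687896-101692845, plus strand, rn6). TPM was 186 in the sevoflurane control and 175 in its 6-hour library, and 101.3 in the desflurane control and 164 in its 6-hour library. The desflurane control was low, and the other 3 libraries were close together. *Dbp* was 1.62-fold higher with desflurane than in its own control but 0.885-fold of the sevoflurane control, so its direction depended on the control. With sevoflurane, the ratio was 0.945 to the own control and 1.73 to the desflurane control.

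*Tef*, which encodes a second PAR bZIP factor (chr7:123043503-123058606, plus strand), had TPM values of 30.1, 28.8, 19.8, and 30.6 in the same order. As in *Dbp*, the desflurane control was the low library and the other 3 were between 28.8 and 30.6. The ratio of *Dbp* to *Tef* within a library was 6.17, 6.09, 5.12, and 5.37, a range of 1.21-fold that does not depend on the scaling between libraries. The ratio of *Tef* with desflurane was 1.55 to its own control and 1.02 to the sevoflurane control, and the latter changed direction after median-of-ratios scaling (log2 ratio -0.08).

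*Per1* encodes a repressor of the clock that also responds quickly to hormones (chr10:55687124-55696020, plus strand). TPM was 8.92 in the sevoflurane control and 16.8 in its 6-hour library, and 4.46 in the desflurane control and 24.4 in its 6-hour library. Both 6-hour libraries were above both controls, and the nearest pair of values differed 1.89-fold. Relative to its own control, *Per1* was 5.46-fold higher with desflurane, at place 30 from the top of 9855 genes. With sevoflurane it was 1.89-fold higher, at place 280 of 9754 genes, and did not reach the 2-fold limit. Against the control of the other agent, the ratio was 3.77 for sevoflurane and 2.73 for desflurane, and both passed the limits.

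*Per2* encodes the partner repressor of PER1 (chr9:98555156-98597323, minus strand) and had the opposite order of libraries. Its TPM values were 10.5, 8.95, 11.0, and 6.12 in the same order. Both 6-hour libraries were below both controls, although none of the differences reached the 2-fold limit and the nearest pair of values differed 1.18-fold. With desflurane it was 1.80-fold below its own control and 1.72-fold below the sevoflurane control. *Per2* was also the only one of the 8 genes that was not lower in the desflurane control (1.05-fold the sevoflurane control), although this difference changed sign with FPKM values (log2 ratio -0.11).

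*Per3* encodes a further PERIOD protein, which is not required for the rhythm itself (chr5:168088126-168123030, minus strand). Its TPM was 22.6, 35.5, 14.1, and 32.3 in the same order, again with both 6-hour libraries above both controls. It was 1.58-fold higher with sevoflurane and 2.29-fold higher with desflurane than in the respective control. The ratio of *Per1* to *Per2* within a library was 0.847, 1.88, 0.405, and 3.98 in the same order. The ratio of *Per3* to *Per2* was 2.14, 3.97, 1.28, and 5.29. Neither ratio overlapped between 6-hour and control libraries. This follows from the values of the single genes, which were already without overlap, and is not a further result.

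**Figure D2:**
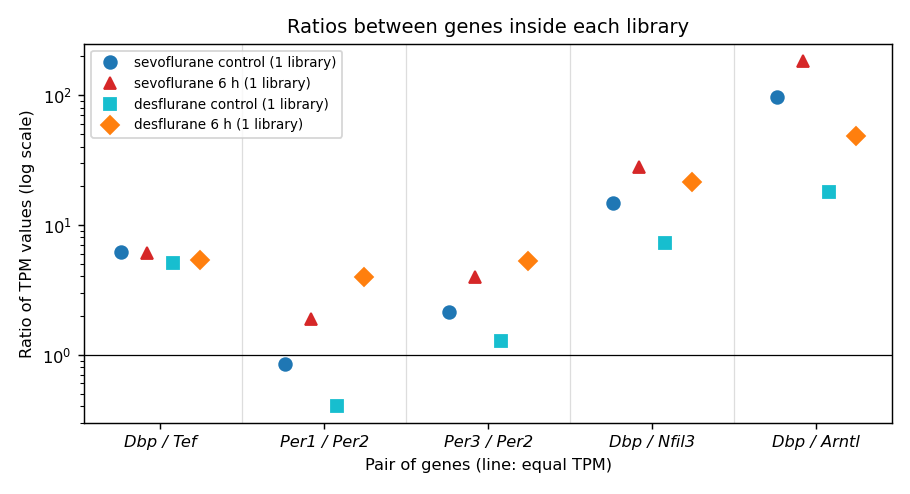
Ratios of TPM values between pairs of genes inside each library (log scale), 1 point per library. *Dbp* and *Tef* keep almost the same ratio in all 4 libraries (5.12 to 6.17), whereas *Per1* / *Per2* and *Per3* / *Per2* are higher in both 6-hour libraries than in both controls. The latter follows from the values of the single genes.

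*Ciart* encodes CHRONO, an inhibitor of the BMAL1 and CLOCK complex (chr2:197987705-197991198, minus strand), and was the least abundant gene by mean TPM. In the same order, its TPM was 4.01, 7.25, 1.97, and 4.03. The sevoflurane control and the 6-hour desflurane library were practically equal, and the 6-hour libraries were above the controls by a factor of 1.005 only. *Ciart* was 1.81-fold higher with sevoflurane and 2.04-fold higher with desflurane than in the respective control. The second value fell short of the 2-fold limit after median-of-ratios scaling (log2 ratio 0.90), with FPKM values (0.95), and with a pseudocount of 1 (0.76). The coverage of *Ciart* in the desflurane control, 3.69 reads per base, was the lowest coverage of any of the 8 genes.

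*Usp2* encodes a ubiquitin-specific protease with a rhythmic short form in the liver (chr8:48406595-48430886, plus strand). Its TPM was 15.1, 17.9, 5.50, and 16.7 in the same order. The desflurane control was the low library, and the other 3 lay within a range of 1.19-fold. Consequently, *Usp2* was 3.03-fold higher with desflurane than in its own control, at place 88 of 9855 genes, but 1.11-fold higher than in the sevoflurane control. With sevoflurane, it was 1.19-fold higher than in its own control and 3.25-fold higher than in the desflurane control.

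*Noct* encodes Nocturnin, a phosphatase of NADP(H) with a rhythm in liver that responds to feeding state (chr2:140286661-140306869, plus strand). It had a TPM value of 23.8 in the 6-hour sevoflurane library, compared with 3.52 in the sevoflurane control, 2.24 in the desflurane control, and 3.39 in the 6-hour desflurane library. This was 6.76-fold higher than in its own control, at place 17 from the top of 9754 genes, and 10.6-fold higher than in the desflurane control, at place 8. The 6-hour sevoflurane library was 7.03-fold higher than the 6-hour desflurane library. With desflurane, *Noct* was 1.51-fold higher than in its own control and 0.962-fold of the sevoflurane control. The coverage behind these values was 40.3 reads per base in the high library and at most 6.33 in the other 3. Whether the difference between the agents exceeds that between livers was not tested.

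The 5 comparisons gave different pictures of the same 8 genes. With sevoflurane, 1 gene (*Noct*) was upregulated relative to the own control, compared with 2.23% of 9754 genes, and none was downregulated, compared with 3.3% of all genes. The median log2 ratio of the 8 genes was 0.45, and that of all genes was 0.05. With desflurane, 4 genes (*Per1*, *Per3*, *Ciart*, and *Usp2*) were upregulated relative to the own control, compared with 2.79% of 9855 genes, and none was downregulated, compared with 1.48%. The median was 0.87, against 0.12 for all genes. After median-of-ratios scaling, which brings the median of all genes close to 0, the same comparison called 51.2% of its changed genes as upregulated instead of 65.3%.

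The counts changed when the controls were exchanged. Relative to the desflurane control, 5 genes were upregulated with sevoflurane (*Per1*, *Per3*, *Ciart*, *Usp2*, and *Noct*), compared with 2.52% of all genes, and none was downregulated, compared with 2.59%. Relative to the sevoflurane control, *Per1* alone was upregulated with desflurane, compared with 2.84% of all genes, and none was downregulated, compared with 1.58%. The medians of the 8 genes were 1.52 and 0.02, respectively. *Per1* passed the limits in 3 of the 4 comparisons of a 6-hour library with a control, and *Noct* passed in both comparisons with sevoflurane and in neither with desflurane. The comparisons that use the same control or the same 6-hour library are not independent of each other.

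**Figure D3:**
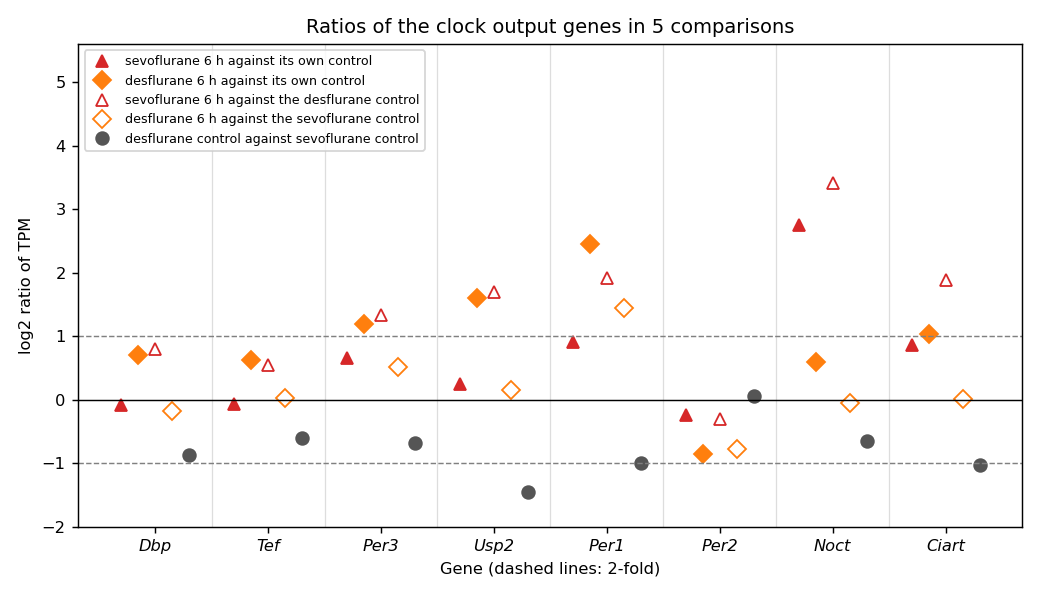
Log2 ratios of TPM values for the 8 clock output genes in the 5 comparisons, with dashed lines at 2-fold. Filled symbols compare a 6-hour library with its own control, open symbols with the control of the other agent, and grey circles compare the desflurane control with the sevoflurane control. For *Usp2*, the filled desflurane symbol is at 1.60 and the open one at 0.15, whereas all symbols of *Per2* for the 6-hour libraries are below 0.

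Both 6-hour libraries were above both controls in 4 of the 8 genes (*Per1*, *Per3*, *Ciart*, and *Usp2*), compared with 33.3% of the 9993 genes with a TPM value higher than 2 in any library. They were below both controls in 1 gene (*Per2*), compared with 13.3% of all genes. These shares are near the background for so few genes and are not a result about the clock output genes as a group. The gap between the nearest values was 1.89-fold for *Per1*, 1.43-fold for *Per3*, 1.18-fold for *Per2*, 1.11-fold for *Usp2*, and 1.005-fold for *Ciart*. With FPKM values in place of TPM, 3 genes were without overlap instead of 5, and with median-of-ratios scaling 4 were.

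The 2 control livers differed in the clock output genes. In the desflurane control, 7 of the 8 genes were lower than in the sevoflurane control and 1 was higher. Of all 9756 genes, 45.1% were higher in the desflurane control. The median log2 ratio of the 8 genes was -0.78, compared with -0.03 for all genes. *Usp2* was 2.74-fold lower and *Ciart* 2.03-fold lower, and these 2 genes passed the limits, compared with 1.17% of 9756 genes downregulated. *Per1* was just short of the limit (ratio 0.5004), followed by *Dbp* (1.83-fold), *Per3* (1.60-fold), *Noct* (1.57-fold), and *Tef* (1.52-fold). None was upregulated, compared with 1.17% of all genes. According to the methods, both rats were sacrificed at approximately 3 PM, after less than 1 minute of anesthesia. The exact times are not given, and the part of sampling time in this difference was not tested.

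The activators and the other genes of the clock were examined next, as a list of 15 genes of which 13 were found in the tables. With sevoflurane, 1 of them was downregulated relative to its own control (*Npas2*), compared with 3.3% of all genes, and none was upregulated, compared with 2.23%. With desflurane, none of them was called relative to its own control, compared with 2.79% of all genes upregulated and 1.48% downregulated. The call of *Npas2* is near the background for so few genes. With the alternatives to this comparison, between 0 and 3 genes of the list were called with either agent. Against the desflurane control, 1 gene was upregulated and 3 were downregulated with sevoflurane, compared with 2.52% and 2.59% of all genes. Against the sevoflurane control, none was called with desflurane, compared with 2.84% and 1.58% of all genes. The TPM values of *Npas2*, which encodes a partner of BMAL1, were 4.16, 1.41, 6.39, and 4.56 in the same order. *Arntl*, named here after its values were seen, was at 1.93, 0.963, 5.66, and 3.40 TPM. It was the only gene of the list that passed the limits between the controls, compared with 1.17% of all genes in each direction. *Arntl* was 2.94-fold higher in the desflurane control, where *Dbp* and *Usp2* were lower. A single call among so few genes is not a result about the list. The ratio of *Dbp* to *Arntl* within a library was 96.5, 182, 17.9, and 48.4.

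*Nr1d1* and *Nr1d2* encode the REV-ERB repressors of *Arntl* and were, with *Bhlhe40*, the 3 most abundant genes of the list. *Nr1d1* had TPM values of 165, 141, 116, and 195, and *Nr1d2* had TPM values of 50.2, 45.6, 41.0, and 47.6 in the same order. In both genes, the desflurane control was the lowest library, as in *Dbp*. *Bhlhe40*, which encodes a repressor that binds E-boxes, was highest in the desflurane control (102) and between 63.8 and 71.8 in the other libraries. Of the Cry genes, which encode the partners of the PERIOD proteins, *Cry1* had TPM values of 2.66, 4.02, 1.85, and 2.49 and *Cry2* had values of 19.5, 17.1, 16.2, and 21.0, and their ratios to the own controls were within the 2-fold limit. *Nfil3*, named after its values were seen, encodes a repressor that competes with PAR bZIP factors for the D-box. Its TPM values were 12.6, 6.31, 14.0, and 7.63, so that both 6-hour libraries were below both controls. The same held for 13.3% of all genes. The ratio of *Dbp* to *Nfil3* was 14.8, 27.8, 7.23, and 21.6.

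**Figure D4:**
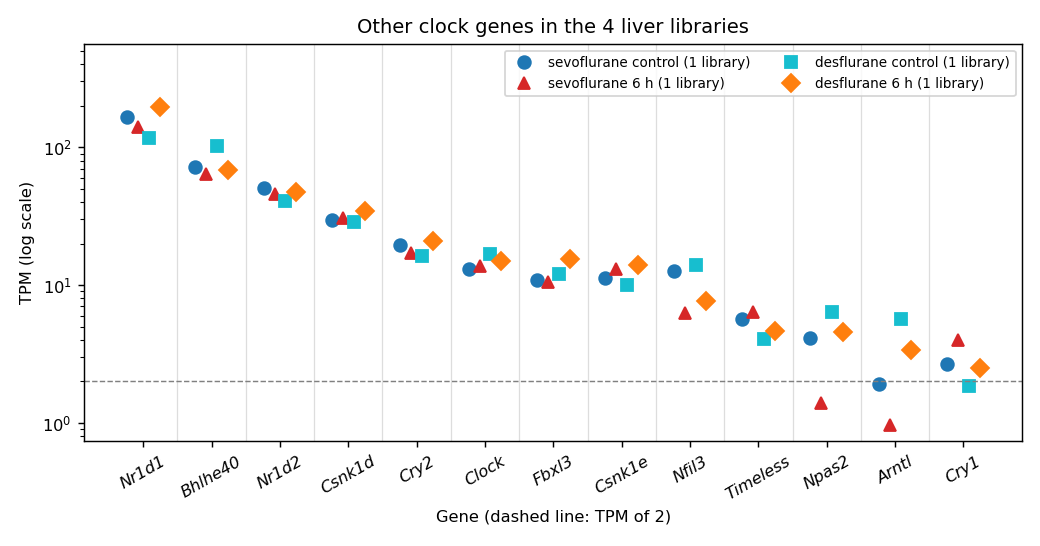
TPM values (log scale) of 13 other clock genes in the 4 liver libraries, 1 point per library, with a dashed line at a TPM of 2. *Arntl*, *Npas2*, *Bhlhe40*, *Nfil3*, and *Clock* (named after its values were seen) are highest in the desflurane control. *Nfil3* is also lower in both 6-hour libraries (6.31 and 7.63) than in both controls (12.6 and 14.0), as are 13.3% of all genes.

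Among 14 genes that are known as targets of PAR bZIP factors or as rhythmic enzymes of the liver, 5 were upregulated and 1 was downregulated with sevoflurane, and 6 were upregulated and none was downregulated with desflurane, relative to the own control. Of all genes, 2.23% were upregulated and 3.3% downregulated with sevoflurane, and 2.79% and 1.48% with desflurane. The median log2 ratio was 0.12 with sevoflurane and 0.70 with desflurane. Against the sevoflurane control, 4 were upregulated and none was downregulated with desflurane (median 0.54), compared with 2.84% and 1.58% of all genes. Against the desflurane control, 6 were upregulated and none was downregulated with sevoflurane (median 0.60), compared with 2.52% and 2.59%. Between the controls, only *Cyp2c11* was called, compared with 1.17% of all genes in each direction. *Por* and *Alas1*, which supply cytochrome P450 enzymes with electrons and heme, and the drug-induced *Cyp2b1* and *Cyp2b2* were upregulated with both agents. *Dbp* and *Tef* were not called with either, and the part of PAR bZIP factors in the values of these enzymes was not tested. The study itself lists *Por*, *Alas1*, *Cyp2b1*, and *Cyp2b2* as activated by both agents. Earlier results of these data were known when the genes were chosen, so the counts are not a result about PAR bZIP targets as a group. *Cyp2b1* and *Cyp2b2* are near-identical, and their separate values are uncertain. *Por* had TPM values of 144, 642, 119, and 415, and *Alas1* had values of 98.2, 433, 100.2, and 304. *Nr1i3*, which encodes the nuclear receptor CAR, had values of 52.9, 22.7, 37.3, and 42.1 and was downregulated with sevoflurane. *Cyp7a1*, the rate-limiting enzyme of bile acid synthesis, was 2.32-fold higher with sevoflurane, and *Cyp4a1* and *Cyp2c11* were 2.11-fold higher with desflurane. *Cyp2c11* was lower in the desflurane control (544) than in the other 3 libraries (1146 to 1457), as were *Cyp3a2* (1567 against 2172 to 2599) and *Dbp*. The abundance of *Alb*, a classical D-box gene, was between 77519 and 92912.

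Genes of the cues that can act on Period genes were examined as a list of 18 genes (glucocorticoid, cAMP and fasting, and temperature). With sevoflurane, 2 of them were upregulated and 1 was downregulated relative to the own control (median log2 ratio 0.39), and with desflurane 5 were upregulated and 2 were downregulated (median 0.88). The shares of all genes were again 2.23% and 3.3% with sevoflurane, and 2.79% and 1.48% with desflurane. Under a 1.5-fold limit, 8 genes of the list instead of 3 were called with sevoflurane. Against the sevoflurane control, 4 cue genes were upregulated and 1 was downregulated with desflurane (median 0.26), compared with 2.84% and 1.58% of all genes. Against the desflurane control, 6 were upregulated and 1 was downregulated with sevoflurane (median 0.63), compared with 2.52% and 2.59%. Between the controls, 1 was higher and 3 were lower in the desflurane control, compared with 1.17% of all genes each. *Zbtb16*, a glucocorticoid-induced transcription factor, was upregulated with both agents, with TPM values of 3.59, 13.8, 4.51, and 19.2, and was highest in the same library as *Per1*. Another glucocorticoid-induced factor, *Klf9*, had values of 69.4, 92.6, 63.2, and 131, with the same order of libraries as *Per1*. *Egr1* (24.5, 31.4, 11.6, and 92.0) also followed this order, as did *Ppargc1a* (4.23, 5.08, 2.90, and 13.5), a coactivator induced by fasting. *Pck1*, which encodes the rate-limiting enzyme of gluconeogenesis, did not, with values of 1079, 980, 414, and 951. *Crem* had the reverse order of *Per1*, with values of 18.7, 18.5, 21.1, and 15.1. *Fos* and *Nr4a1* had other orders and were below a TPM of 2 in all libraries. *Crem*, *Fos*, and *Nr4a1* were named after their values were seen. *Dusp1*, a phosphatase of stress kinases, was highest in the desflurane control (127) and lowest in the 6-hour desflurane library (22.4). With sevoflurane, *Sgk1* was at 0.481-fold of its own control and passed the limit, and the abundant *Tat* was at 1.99-fold and did not. Of the other genes listed for glucocorticoids, *Dusp1*, *Sgk1*, *Tat*, and *Tsc22d3* had other orders of libraries than *Per1*, and *Fkbp5* had the same order. *Tsc22d3* and *Fkbp5* were named after their values were seen. The share of all genes with the order of *Per1* was not counted. The heat shock gene *Hspa1b* passed the limit with sevoflurane at a TPM value of 2.03, whereas *Hsph1* had values of 21.1, 39.3, 27.3, and 10.8 in the same order. Earlier results of these data were known when this list was chosen too, so its counts are not a result about the cues. The part of any of these cues in the values of the Period genes was not tested.

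Genes with a pattern most like that of *Dbp*, *Per1*, and *Per2* were sought among 9136 genes that exceeded a TPM of 2 in each of the 4 libraries, by the root mean square difference of centred log2(TPM + 1) values. Since there are 4 libraries only, such likeness is a description. The genes closest to *Dbp* were *Gpt* (difference 0.07), *Cyp3a2* (0.08), and *Cyp2d4* (0.08). Among those closest to *Per1* were *Slc25a47* (0.15) and *Rdh16* (0.16), and *Slc25a47* had TPM values of 287, 475, 184, and 869. Those closest to *Per2* were *Wasf1* (0.04), *Ap3s1* (0.05), and *Gnpnat1* (0.06). Only the 3 closest genes of each were kept, so the absence of the other clock output genes does not show different patterns. *Ciart* was not among the genes searched, because of its TPM value in the desflurane control.

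The files also hold transcripts that StringTie assembled at the same loci from the same reads. Some of them have exactly the annotated ends and TPM value, so they are not an independent check of the annotated rows. At every one of the 8 genes, at least 1 assembled row overlapped on the same strand, and no other annotated gene overlapped. *Noct* was assembled with exactly its annotated ends and TPM value in 3 libraries. In the 6-hour sevoflurane library, the assembled row extended 1707 bases past the annotated end, and its TPM value was 15.2 instead of 23.8, a ratio of 4.32 to the sevoflurane control in place of 6.76. *Per1* gave nearly the same ratios from assembled rows, 1.89 with sevoflurane and 5.11 with desflurane. For *Per2*, the assembled rows gave larger decreases, and the decrease with desflurane then passed the 2-fold limit at a ratio of 0.413.

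*Usp2* was assembled mainly from a start that lay between 15173 and 15213 bases inside the annotated start in 3 libraries, and the assembled rows ended between 1637 and 1639 bases past the annotated end in all 4. The 6-hour sevoflurane library had a similar row and an additional row across the annotated start. By assembled rows, the TPM values of *Usp2* were 20.5, 27.9, 8.13, and 26.8, so the desflurane control was again the low library. *Ciart* had 2 assembled rows in the desflurane control, and their values added up to 4.51 instead of 1.97. With this sum, the direction of *Ciart* between the controls and with desflurane was reversed. TPM is scaled for length, so 2 rows that each cover a part of a gene can add up to more than its value. Whether the reversal comes from this adding was not tested. The assembled rows of *Tef* began between 9389 and 9550 bases before the annotated start.

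**Figure D5:**
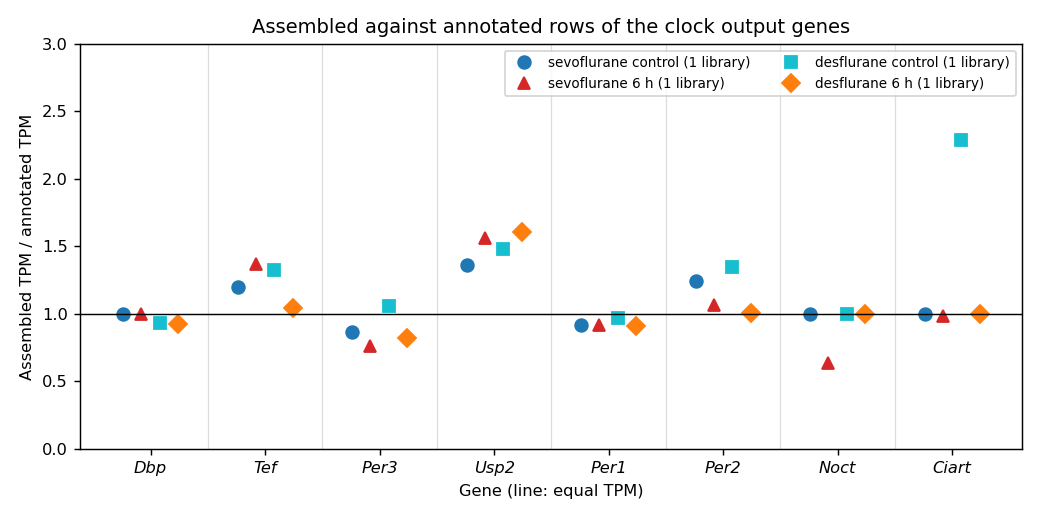
TPM of assembled rows on the same strand divided by the TPM of the annotated row for the 8 clock output genes, 1 point per library, with a line at equal values. The largest ratio is that of *Ciart* in the desflurane control (2.29), where the values of 2 assembled rows were added. The smallest is that of *Noct* in the 6-hour sevoflurane library (0.639), and *Usp2* is above 1 in all libraries (1.36 to 1.61).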

How the data were processed

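RNA from 1 rat liver per condition was sequenced, and conditions were taken from the labels. Reads were paired, and the authors used sickle 1.33 for trimming (minimum quality 30, minimum length 20), HISAT2 2.1.0 for alignment against rn6, SAMtools 1.10 for sorting, and StringTie 2.1.2 for quantification by refGene. The library kit is named differently in the labels and in the methods. The deposited tables give TPM as a signal in which the assembled rows alone add up to 1000000 per library and the annotated rows come on top. The authors' StringTie run also gave FPKM values and the average coverage (a signal not scaled for library size). Strand settings are not given in the sources used here.

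Annotated rows longer than 200 base pairs were kept here and summed per symbol. Calls followed the study's limits (TPM higher than 2, more than 2-fold), with the genes above 2 in either library as background. The call rule was tested on simulated data. Named were the 8 genes, and of each list the called genes, the 3 most abundant, and the Cry genes; others are marked. A gene found by the likeness to *Per1* is not reported here. The members, lists, and comparisons were chosen with earlier results of these data known. Python 3.11.15, numpy 2.4.6, and pandas 2.3.3 were used.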

Additional observations from a re-analysis of the deposited data

Results flagged for a closer look

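The log2 ratios to the own controls had opposite signs with the 2 agents in *Dbp* and *Tef*, and the difference (desflurane minus sevoflurane) was 0.78 for *Dbp* and 0.69 for *Tef*. None of these ratios was called. The ratios with sevoflurane were close to 0 (-0.08 and -0.06), and against the mean of both controls they were 0.29 and 0.21. For *Tef*, the ratio with sevoflurane was also above 0 with assembled rows added (0.05) or in place of annotated rows (0.13). Opposite signs were also found in *Nr1d1* (0.98), *Nr1i3* (1.40), *Cyp2c11* (1.30), *Sgk1* (1.32), *Dusp1* (-2.65), *Pck1* (1.34), and *Hsph1* (-2.24). With 1 library per condition, these differences were not tested. On the strand opposite to *Per3*, which was not used in the comparisons, assembled rows had a summed TPM of 4.80 after 6 hours of sevoflurane and 3.27 after 6 hours of desflurane, compared with 2.64 in the sevoflurane control and no such row in the desflurane control.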

How the results depend on the processing

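Of 456 recomputed log2 ratios of the 8 genes over 12 alternatives, 402 kept their direction and whether they were called, 22 came to be called (14 of them under the 1.5-fold limit and 8 under others), 16 were no longer called (3 of them, all *Ciart*, were still past 2-fold but not past the limit on TPM or FPKM), 14 uncalled ratios changed sign, and 2 called ratios were reversed. Both reversals concern *Ciart* with assembled rows in place of annotated rows, an alternative chosen after seeing the data (-0.16 for desflurane against its own control and 0.17 between the controls). Both rest on the sum of 2 assembled rows in the desflurane control. Under the 1.5-fold limit, the called genes were 4 with sevoflurane and 8 with desflurane against the own control, 2 with desflurane against the sevoflurane control, and 7 between the controls. Against the mean of both controls, 3 genes were called with sevoflurane and 1 with desflurane. The 4 calls of desflurane against its own control became 3 with a TPM limit of 5, a pseudocount of 1, and FPKM. They also became 3 with median-of-ratios scaling, equal totals of annotated rows, and assembled rows in place. Between the controls, the 2 calls became 1 with a TPM limit of 5, a pseudocount of 1, assembled rows added, and assembled rows in place. They became 3 with FPKM. The calls of desflurane against the sevoflurane control became 2 with FPKM and with assembled rows in place, and those of sevoflurane against the desflurane control became 3 in the latter. With FPKM, 3 genes instead of 5 did not overlap between 6-hour and control libraries. With median-of-ratios scaling, equal totals of annotated rows, or assembled rows in place, 4 did not. Over all genes, median-of-ratios scaling changed the upregulated share of calls with desflurane from 65.3% to 51.2% against its own control and from 64.2% to 51.2% against the other. Of the other clock genes, 1 called with sevoflurane became 0 to 3 and 0 called with desflurane became up to 3, and the 3 cue genes called with sevoflurane became 8 under the 1.5-fold limit. Adding assembled rows counts reads again. No paired analysis was possible because each condition has 1 library. No replicate could be left out, and coverage limits *Ciart* and *Noct* most.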
